A study of Mus musculus with 9 samples.

Results

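The collagen genes of the mouse were followed through the lungs of tumour-bearing mice given an antibody against PD1 in nanocapsules, the free antibody, or phosphate-buffered saline (PBS). Members were all rows whose symbol is Col, a type number, a and a chain number, such as Col1a1, and 44 of the 45706 genes in the table met this rule. Of these, 19 reached 1 TPM in at least 3 of the 9 lungs and were tested, among 13248 genes tested in all. TPM is an abundance corrected for transcript length, and every library has an equal TPM total.

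Collagens are proteins of 3 chains wound into a triple helix, and the genes encode the chains. Fibrillar collagens (types I, III, V and XI among them) assemble into the fibrils that carry the tensile load of the airway, vessel and alveolar walls, and are made mostly by fibroblasts. Type IV collagen forms a sheet-like network in the basement membranes under epithelium and endothelium. The remaining types decorate fibrils, form beaded filaments, anchor cells or link basement membranes to the tissue beneath them.

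All mice were female BALB/c, aged 4 to 6 weeks, and all had been injected in the right flank with 4T1, a mammary carcinoma line of the mouse, so no tumour-free lung was compared. They received anti-PD1 nanocapsules, free anti-PD1 or PBS on days 7 and 14, and lungs were taken on day 21, with 3 lungs in each of the 3 groups and RNA selected by its poly(A) tail. PD1 is a receptor that restrains activated T cells. A dose of 150 µg per mouse is stated, and it is not clear from the labels that it covers the free antibody as well as the nanocapsules. Lungs are numbered within groups and no animal or batch is named, so the p-values below measure only the spread among these lungs.

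The sequencing depth cannot be read from TPM and was unknown. A library held 12194 to 13407 genes at or above 1 TPM. S100a8 and S100a9, which encode abundant neutrophil proteins, took 15.5 to 17.5% of the TPM in nanocapsule lungs, 10.3 to 11.95% in anti-PD1 lungs and 12.1 to 16.7% in PBS lungs. Mitochondrial transcripts took 2.22 to 3.295% in nanocapsule lungs, 5.01 to 5.76% in anti-PD1 lungs and 2.37 to 4.38% in PBS lungs. Collagen transcripts were a small part of each library, 0.00831 to 0.0180% of the TPM. In whole lungs, fewer cells of a type and less RNA per cell cannot be told apart.

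The start regions of 4 of the most abundant collagen genes are shown because 2 of them, Col4a1 and Col4a2, are read in opposite directions from 1 shared stretch of DNA. Each is the RefSeq window from 250 bases before to 50 bases after the annotated start, on GRCm38.p6, written 5′ to 3′ on the strand of the gene. The capitals mark the 78 bases, chr8:11312777-11312854, that both type IV windows hold, so the capitals in one are the reverse complement of those in the other. The RefSeq start of Col4a1, at 11312826, lies 21 bases past that of Col4a2, at 11312805, so the transcripts overlap at their starts. Col4a1 is at chr8:11312777-11313076 on the minus strand and Col4a2 at chr8:11312555-11312854 on the plus strand.
Col4a1: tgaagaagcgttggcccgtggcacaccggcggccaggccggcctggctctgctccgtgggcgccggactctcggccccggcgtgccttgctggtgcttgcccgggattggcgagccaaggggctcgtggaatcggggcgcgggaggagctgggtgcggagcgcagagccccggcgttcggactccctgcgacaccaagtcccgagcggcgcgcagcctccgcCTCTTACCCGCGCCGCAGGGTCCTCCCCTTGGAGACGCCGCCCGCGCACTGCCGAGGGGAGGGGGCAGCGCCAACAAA
Col4a2: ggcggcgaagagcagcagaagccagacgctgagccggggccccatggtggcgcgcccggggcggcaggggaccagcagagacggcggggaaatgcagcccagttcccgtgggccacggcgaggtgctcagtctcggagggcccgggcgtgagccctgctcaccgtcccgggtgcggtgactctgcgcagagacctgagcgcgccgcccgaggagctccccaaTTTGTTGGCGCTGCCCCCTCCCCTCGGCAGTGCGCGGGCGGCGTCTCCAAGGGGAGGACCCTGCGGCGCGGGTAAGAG
Both windows were rich in G and C, 74% of the bases for Col4a1 and 73.7% for Col4a2.

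The windows of Col1a2, at chr6:4505368-4505667, and Col3a1, at chr1:45311288-45311587, both on the plus strand, are shown because these genes lead the collagen levels, and have capitals on the letters of 3 motifs that a search of either strand found. The motifs were the CCAAT box, the GC box GGGCGG and the TATA motif TATAAA, and no 2 of them overlap in these windows.
Col1a2: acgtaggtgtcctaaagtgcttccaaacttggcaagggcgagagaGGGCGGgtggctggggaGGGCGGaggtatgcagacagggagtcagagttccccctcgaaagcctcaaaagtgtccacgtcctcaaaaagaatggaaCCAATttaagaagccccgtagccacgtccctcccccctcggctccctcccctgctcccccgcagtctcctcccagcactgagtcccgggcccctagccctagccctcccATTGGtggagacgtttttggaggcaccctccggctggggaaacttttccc
Col3a1: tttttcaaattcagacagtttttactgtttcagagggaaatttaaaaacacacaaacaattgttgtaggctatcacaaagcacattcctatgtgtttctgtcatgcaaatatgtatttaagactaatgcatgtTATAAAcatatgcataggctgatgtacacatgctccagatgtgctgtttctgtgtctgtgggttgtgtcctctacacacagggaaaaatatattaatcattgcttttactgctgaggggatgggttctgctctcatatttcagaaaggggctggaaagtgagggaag
Col1a2 held CCAAT at -109, its reverse complement at the start itself, and GGGCGG at -205 and -188, counted in bases from the RefSeq start. Col3a1, with 37.7% G and C against 61% for Col1a2, held TATAAA at -117 and neither of the other motifs. Col4a1 held the reverse complement of CCAAT at -145 and that of GGGCGG at 9. Col4a2 held CCAAT at -32, GGGCGG at -192 and 7, and the reverse complement of GGGCGG at -48. The GC boxes at 9 in Col4a1 and at 7 in Col4a2 are the same bases of the shared stretch, read on opposite strands. Of the 32851 windows of all genes, 37.4% held CCAAT, 35.7% held GGGCGG and 13.6% held TATAAA. RefSeq windows were found for 35 of the 44 collagen symbols, 38 windows in all, of which 13 held CCAAT, 23 held GGGCGG and 5 held TATAAA. These matches are letters in a window, not sites shown to be used.

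By class, 6 of 11 fibrillar, 3 of 6 basement membrane and 10 of 27 other collagen genes passed the 1 TPM rule. The 10 others were 4 of 9 fibril-associated (FACIT) chains, 4 of 6 chains of the beaded filaments of type VI, and both multiplexins, types XV and XVIII. None of the 4 transmembrane, 3 network-forming, 1 anchoring fibril or 2 type XXVI and XXVIII genes passed. Col1a1, Col1a2 and Col3a1 together made up 48.2 to 58.2% of all collagen TPM in a lung.

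The fibrillar genes summed to 83.1, 64.7 and 50.5 TPM in nanocapsule lungs 1 to 3, to 111, 63.5 and 102 TPM in anti-PD1 lungs, and to 106, 56.8 and 78.7 TPM in PBS lungs. The groups overlapped, and anti-PD1 2 and PBS 2 were both below nanocapsule 2. The type IV genes summed to 13.6, 6.53 and 8.98 TPM in nanocapsule lungs, to 19.1, 15.98 and 28.9 TPM in anti-PD1 lungs, and to 11.9, 5.37 and 15.5 TPM in PBS lungs. Every anti-PD1 lung stood above every nanocapsule and every PBS lung in type IV transcripts, which was not so for the fibrillar class. The nearest values were 15.98 TPM in anti-PD1 2 and 15.5 TPM in PBS 3. The other collagens summed to 27.5 ± 3.91 TPM in nanocapsule lungs, 43.2 ± 8.18 TPM in anti-PD1 lungs and 34.0 ± 9.29 TPM in PBS lungs (SD, n = 3 each). In this class too every anti-PD1 lung, at 34.2 TPM or more, stood above every nanocapsule lung, at 31.5 TPM or less. Its anti-PD1 and PBS lungs overlapped. For a single value such as a sum, an exact permutation of 3 lungs against 3 cannot give a two-sided p below 0.1, so the sums are given as description.

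**Figure D1:**
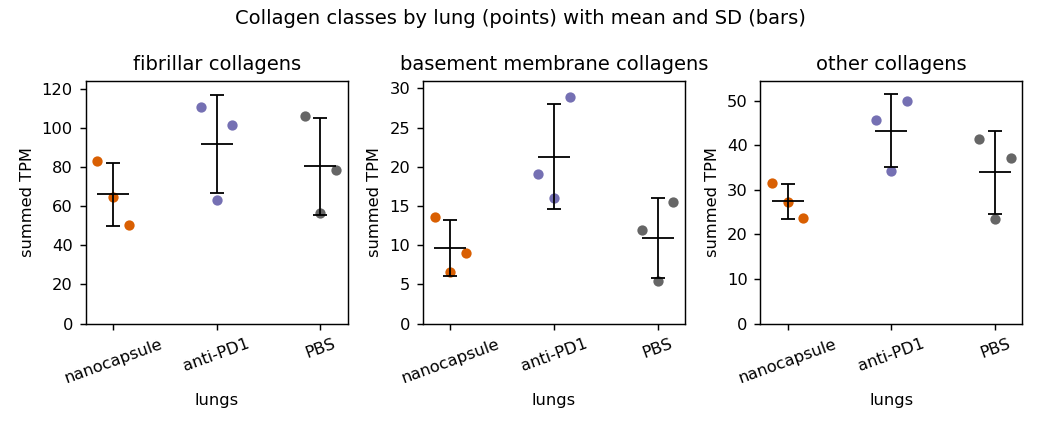
Summed TPM (y axis) of the fibrillar, basement membrane and other collagen genes in each lung, with nanocapsule, anti-PD1 and PBS lungs on the x axis; points are lungs and bars the mean and SD of 3 lungs. In the basement membrane panel the anti-PD1 lungs, at 15.98 to 28.9 TPM, lie above all other lungs, while the groups overlap in the fibrillar panel. In the panel of the other collagens the anti-PD1 lungs lie above the nanocapsule lungs and overlap the PBS lungs.

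Between the lowest and highest of the 9 lungs the basement membrane sum differed 5.38-fold, the fibrillar sum 2.20-fold and the sum of the others 2.12-fold. As a share of collagen TPM, type IV took 9.34% ± 2.35 in nanocapsule lungs, 13.6% ± 2.60 in anti-PD1 lungs and 8.51% ± 2.92 in PBS lungs (SD, n = 3 each). The fibrillar share was 63.8% ± 2.65 in nanocapsule lungs, 58.5% ± 4.12 in anti-PD1 lungs and 64.3% ± 3.75 in PBS lungs (SD, n = 3 each). Fibrillar transcripts were the largest part of the collagen TPM in every lung.

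**Figure D2:**
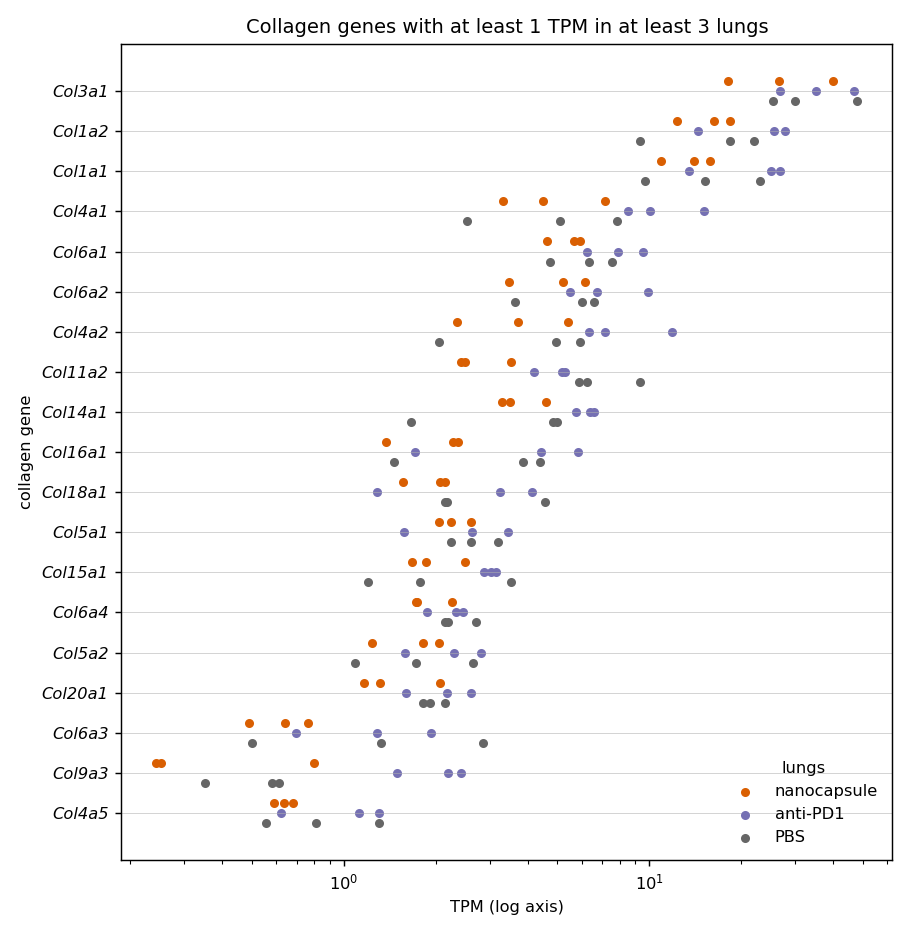
TPM on a log axis (x) of the 19 tested collagen genes (y), 1 point for each of the 9 lungs, coloured by nanocapsule, anti-PD1 and PBS. Col3a1, Col1a2 and Col1a1 are the most abundant, and Col4a1 spans the wide range of 2.52 to 15.1 TPM.

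Among the fibrillar genes, Col3a1, the single chain of type III collagen and a partner of type I in distensible tissues, was the most abundant collagen transcript. It stood at 40.0, 26.5 and 18.1 TPM in nanocapsule lungs, 46.7, 26.9 and 35.1 TPM in anti-PD1 lungs and 48.0, 25.5 and 29.9 TPM in PBS lungs. The lungs of each group spread more widely than the group means differed. The log2 difference of nanocapsule against anti-PD1 was -0.38 (SE 0.31, limma adjusted p = 0.419), that of nanocapsule against PBS -0.30 (limma adjusted p = 0.750) and that of anti-PD1 against PBS 0.09 (limma adjusted p = 0.918). The first lay between -0.66 and -0.11, and the second between -0.58 and -0.03, without nanocapsule 1 and without nanocapsule 3. Here and below, log2 differences are of log2(TPM + 1), which understates the change of genes at low TPM.

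Type I collagen, the main fibril protein of the body, is built of Col1a1 and Col1a2 chains. Col1a1, on chromosome 11 from 94936224 to 94953042 (GRCm38, plus strand), stood at 15.8, 14.0 and 10.9 TPM in nanocapsule lungs, 26.8, 13.5 and 25.1 TPM in anti-PD1 lungs and 22.9, 9.66 and 15.2 TPM in PBS lungs. Col1a2 stood at 18.4, 16.3 and 12.3 TPM in nanocapsule lungs, 25.6, 14.4 and 27.8 TPM in anti-PD1 lungs and 22.01, 9.35 and 18.4 TPM in PBS lungs. For both chains anti-PD1 1 and 3 were the 2 highest lungs and PBS 2 the lowest, and the groups overlapped. Col1a1 differed by -0.61 on the log2 scale for nanocapsule against anti-PD1 (SE 0.31, limma adjusted p = 0.227) and by 0.45 for anti-PD1 against PBS (limma adjusted p = 0.494). With 1 lung left out the second value lay between 0.15 (without PBS 2) and 0.75 (without anti-PD1 2), and that of Col1a2, 0.45 with all lungs, between 0.11 and 0.73 without the same lungs.

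The ratio of Col1a1 to Col1a2 TPM varied far less than either chain. It lay between 0.827 and 1.05 over the 9 lungs, a 1.27-fold range, whereas Col1a1 itself spanned a 2.77-fold range. The ratio averaged 0.867 ± 0.0146 in nanocapsule lungs, 0.963 ± 0.0762 in anti-PD1 lungs and 0.967 ± 0.122 in PBS lungs (SD, n = 3 each). Col3a1 was less closely tied to Col1a1, with a ratio between 1.40 and 2.64.

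Type V collagen is a minor fibrillar type that sits inside type I fibrils and limits their width. Its chains Col5a1 and Col5a2 averaged 2.30 ± 0.285 and 1.70 ± 0.421 TPM in nanocapsule lungs, 2.55 ± 0.939 and 2.23 ± 0.611 TPM in anti-PD1 lungs, and 2.69 ± 0.482 and 1.82 ± 0.781 TPM in PBS lungs (SD, n = 3 each). The groups overlapped for both chains, and the largest of their log2 differences was -0.25, for Col5a2 in nanocapsule against anti-PD1 (limma adjusted p = 0.504). Unlike the type I chains, these 2 did not keep a steady ratio. Col5a1 to Col5a2 lay between 0.992 and 2.39, a 2.41-fold range against 2.19-fold for Col5a1 alone.

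Col4a1 and Col4a2 encode the chains of the type IV collagen found in nearly all basement membranes. Col4a1, on chromosome 8 from 11198423 to 11312826 (GRCm38, minus strand), stood at 7.18, 3.32 and 4.47 TPM in nanocapsule lungs, 10.1, 8.54 and 15.1 TPM in anti-PD1 lungs and 5.10, 2.52 and 7.85 TPM in PBS lungs. Col4a2, from 11312805 to 11449287 on the plus strand, stood at 5.41, 2.34 and 3.72 TPM in nanocapsule lungs, 7.17, 6.35 and 11.9 TPM in anti-PD1 lungs and 4.95, 2.05 and 5.91 TPM in PBS lungs. For both genes all 3 anti-PD1 lungs lay above all nanocapsule and all PBS lungs, and the nanocapsule and PBS lungs overlapped.

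For nanocapsule against anti-PD1, Col4a1 differed by -1.04 (SE 0.35, limma adjusted p = 0.110) and Col4a2 by -0.98 (SE 0.35, limma adjusted p = 0.121). For anti-PD1 against PBS, Col4a1 differed by 1.05 (SE 0.35, limma adjusted p = 0.224) and Col4a2 by 0.87 (limma adjusted p = 0.262). Neither passed the adjusted threshold of 0.05 over all genes. Without PBS 2, the lowest lung in both genes, the differences from PBS were 0.70 and 0.52, and without PBS 3 they were 1.36 and 1.11. For nanocapsule against PBS, Col4a1 differed by 0.01 (limma adjusted p = 0.997) and Col4a2 by -0.10 (limma adjusted p = 0.937).

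The ratio of Col4a1 to Col4a2 lay between 1.0304 and 1.42 in the 9 lungs, a 1.38-fold range against 5.97-fold for Col4a1 alone. For Col1a1 to Col1a2 the range was 1.27-fold, against 2.77-fold for Col1a1 alone. The part of the shared start region in the ratio of Col4a1 to Col4a2 was not tested. Ratios of Col4a1 to Col4a2 averaged as follows. They were 1.32 ± 0.110 in nanocapsule lungs, 1.34 ± 0.0676 in anti-PD1 lungs and 1.20 ± 0.151 in PBS lungs (SD, n = 3 each). Col4a1 and Col4a2 share 22 exon bases at their starts on opposite strands, and it is not given whether strand was used in counting. Col4a5, which can form a network with Col4a3 and Col4a4, as in the kidney filter, averaged 0.637 ± 0.0448 TPM in nanocapsule lungs, 1.02 ± 0.353 TPM in anti-PD1 lungs and 0.889 ± 0.377 TPM in PBS lungs (SD, n = 3 each). Col4a3 and Col4a4, a second head-to-head pair with starts 72 bases apart, stayed below 1 TPM in every lung.

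Marker sums of endothelium, a main maker of type IV collagen, and of alveolar epithelium averaged highest in anti-PD1 lungs, as these genes did. The 17 endothelial markers, all of them found, summed to 114 to 198 TPM in nanocapsule lungs, 323 to 476 TPM in anti-PD1 lungs and 110 to 222 TPM in PBS lungs. All 17 had lower means in nanocapsule lungs than in anti-PD1 lungs and all 17 had higher means in anti-PD1 lungs than in PBS lungs. None of the 17 was at 0 in all lungs. Alveolar epithelium also rests on basement membrane. Its 9 type 2 cell markers summed to 801 to 4237 TPM in nanocapsule lungs, 1636 to 4100 TPM in anti-PD1 lungs and 482 to 1314 TPM in PBS lungs, and its 10 type 1 cell markers to 150 to 216 TPM in nanocapsule lungs, 187 to 243 TPM in anti-PD1 lungs and 146 to 169 TPM in PBS lungs. The nanocapsule mean was below the anti-PD1 mean for 9 of 9 type 2 and 9 of 10 type 1 markers, and the anti-PD1 mean above the PBS mean for 9 of 9 and 9 of 10. The sums of nanocapsule and anti-PD1 lungs overlapped in both lists, and those of anti-PD1 and PBS lungs in neither. The highest type 2 sum of any lung was that of nanocapsule 1. In nanocapsule against PBS, 8 of 9 type 2 markers had higher means. Among the endothelial markers, Cdh5, the cadherin of endothelial junctions, stood at 9.69, 3.29 and 5.5995 TPM in nanocapsule lungs, 17.4, 12.4 and 26.5 TPM in anti-PD1 lungs and 6.26, 2.08 and 9.55 TPM in PBS lungs.

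Divided by the endothelial sum of the same lung, the type IV sum was 0.0687, 0.0572 and 0.0453 in nanocapsule lungs, 0.0591, 0.0484 and 0.0606 in anti-PD1 lungs and 0.0556, 0.0487 and 0.0697 in PBS lungs. On this scale the anti-PD1 lungs lay inside the range of the other groups, at a mean of 0.0561 ± 0.00664 against 0.0571 ± 0.0117 for nanocapsule and 0.0580 ± 0.0107 for PBS lungs (SD, n = 3 each). Car4 was the largest endothelial marker in every lung. It stood at 62.3, 55.1 and 112 TPM in nanocapsule lungs, 98.2, 143 and 111 TPM in anti-PD1 lungs and 103, 55.2 and 73.8 TPM in PBS lungs. The ratio is thus weighted to Car4, and the overlap of groups does not describe the other endothelial markers. The ratio was computed after the values had been seen, and the part of endothelial, alveolar or pericyte cell content in the type IV differences was not tested.

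**Figure D3:**
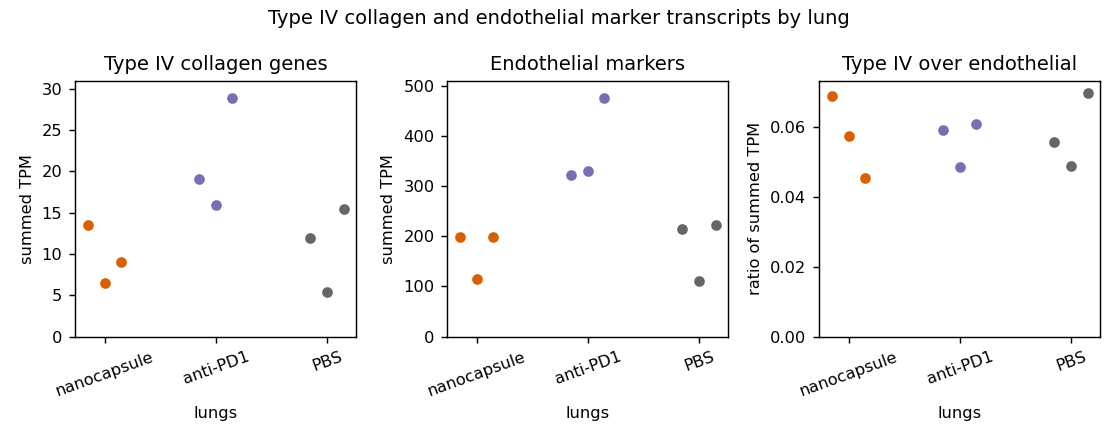
Type IV collagen and endothelial marker transcripts in each lung, as summed TPM and as the ratio of the sums (y axes), for nanocapsule, anti-PD1 and PBS lungs (x axis); points are lungs. The sums are highest in anti-PD1 lungs, whereas the ratio lies between 0.0453 and 0.0697 with all groups overlapping. Car4 is the largest endothelial marker in every lung and weighs heavily on the ratio.

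Type VI collagen forms beaded filaments near cells and basement membranes, classically from Col6a1, Col6a2 and 1 further chain such as Col6a3. Col6a1 stood at 5.67, 5.95 and 4.63 TPM in nanocapsule lungs, 7.88, 6.26 and 9.55 TPM in anti-PD1 lungs and 7.54, 4.72 and 6.35 TPM in PBS lungs. Its nanocapsule lungs lay below its anti-PD1 lungs without overlap (log2 difference -0.46, SE 0.19, limma adjusted p = 0.159) and overlapped its PBS lungs. Col6a2 averaged 4.94 ± 1.37 TPM in nanocapsule lungs, 7.38 ± 2.28 TPM in anti-PD1 lungs and 5.42 ± 1.58 TPM in PBS lungs (SD, n = 3 each), and its ratio to Col6a1 kept Col6a1 at 0.921 to 1.34 times Col6a2.

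Col6a3 stood at 0.644, 0.488 and 0.764 TPM in nanocapsule lungs, 1.93, 0.699 and 1.28 TPM in anti-PD1 lungs and 1.32, 0.5003 and 2.86 TPM in PBS lungs. Its highest lung, PBS 3, was far above the other PBS lungs, and the difference of nanocapsule against PBS was -0.55 (SE 0.33, limma adjusted p = 0.586). It was -0.20 without PBS 3 and -0.88 without PBS 2. Col6a4, an alternative to Col6a3, averaged 1.90 ± 0.302 TPM in nanocapsule lungs, 2.22 ± 0.311 TPM in anti-PD1 lungs and 2.35 ± 0.310 TPM in PBS lungs (SD, n = 3 each).

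The FACIT chains lie on the surface of fibrils. Col14a1, which binds type I fibrils and the proteoglycan decorin, stood at 4.60, 3.51 and 3.301 TPM in nanocapsule lungs, 6.41, 5.74 and 6.57 TPM in anti-PD1 lungs and 4.83, 1.65 and 4.98 TPM in PBS lungs. All anti-PD1 lungs lay above all other lungs, with log2 differences of -0.60 for nanocapsule against anti-PD1 (SE 0.28, limma adjusted p = 0.198) and 0.68 for anti-PD1 against PBS (SE 0.28, limma adjusted p = 0.278). Col16a1 averaged 2.004 ± 0.548 TPM in nanocapsule lungs, 3.98 ± 2.09 TPM in anti-PD1 lungs and 3.24 ± 1.56 TPM in PBS lungs (SD, n = 3 each), with overlapping groups. Col20a1 stood at 1.16, 1.31 and 2.06 TPM in nanocapsule lungs, 2.18, 2.61 and 1.60 TPM in anti-PD1 lungs and 1.92, 2.15 and 1.81 TPM in PBS lungs, with overlapping groups and a difference of -0.25 for nanocapsule against PBS (SE 0.20, limma adjusted p = 0.669).

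The multiplexins lie at the outer face of basement membranes, and Col18a1 is the source of the endostatin fragment. Col15a1 averaged 2.004 ± 0.432 TPM in nanocapsule lungs, 3.02 ± 0.142 TPM in anti-PD1 lungs and 2.17 ± 1.21 TPM in PBS lungs (SD, n = 3 each). Its nanocapsule lungs lay below its anti-PD1 lungs without overlap (log2 difference -0.43, limma adjusted p = 0.277). Col18a1 averaged 1.92 ± 0.316 TPM in nanocapsule lungs, 2.89 ± 1.46 TPM in anti-PD1 lungs and 2.96 ± 1.39 TPM in PBS lungs (SD, n = 3 each). Its nanocapsule lungs lay just below its PBS lungs, the nearest at 2.14 against 2.15 TPM.

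Col11a2 encodes a fibrillar chain of type XI collagen known from cartilage and the inner ear. It stood at 2.50, 2.42 and 3.53 TPM in nanocapsule lungs, 5.31, 4.19 and 5.17 TPM in anti-PD1 lungs and 5.88, 6.26 and 9.30 TPM in PBS lungs. The nanocapsule lungs were lowest and the PBS lungs highest, with the anti-PD1 lungs between them and no overlap of groups. Of all genes, 24.6% had every nanocapsule lung below every anti-PD1 lung and 11.9% below every PBS lung. For 13.4% every anti-PD1 lung lay below every PBS lung. The share of all genes with all 3 groups separate was not computed. The log2 difference of nanocapsule against PBS was -1.08 (SE 0.19, limma adjusted p = 0.280), which placed Col11a2 10th by p among 13248 genes. That of nanocapsule against anti-PD1 was -0.63 (SE 0.19, limma adjusted p = 0.0967) and that of anti-PD1 against PBS -0.45 (SE 0.19, limma adjusted p = 0.289). The last value was -0.27 without PBS 3.

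The gene, on chromosome 17 from 34039437 to 34066685 (GRCm38, plus strand), begins 1037 bases after the end of Rxrb, a nuclear receptor gene on the same strand. Rxrb was several times more abundant, at 47.2 to 56.0 TPM, and did not follow the order of Col11a2. The partners of Col11a2 in type XI collagen, Col11a1 and Col2a1, were nearly absent, at no more than 0.10002 and 0.0424 TPM in any lung. Of 10 cartilage markers, 8 were found and 2 reached the 1 TPM rule, and Matn1 was at 0 in every lung and Acan, the gene of aggrecan, at no more than 0.0769 TPM. The cartilage markers summed to 1.34 to 3.61 TPM in nanocapsule lungs, 3.11 to 3.75 TPM in anti-PD1 lungs and 0.832 to 2.92 TPM in PBS lungs.

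Col9a3 encodes a chain of the FACIT type IX, which in cartilage coats the fibrils of type II collagen. It stood at 0.799, 0.253 and 0.243 TPM in nanocapsule lungs, 1.49, 2.19 and 2.42 TPM in anti-PD1 lungs and 0.351, 0.611 and 0.580 TPM in PBS lungs. Only the anti-PD1 lungs reached 1 TPM, so the gene passed the rule through that group alone and had to differ from the others. Its log2 difference was -1.09 for nanocapsule against anti-PD1 (SE 0.22, limma adjusted p = 0.0567), 0.99 for anti-PD1 against PBS (SE 0.22, limma adjusted p = 0.211) and -0.10 for nanocapsule against PBS (limma adjusted p = 0.895). Its partners were lower still: Col9a1 was at 0 in all lungs and Col9a2 at no more than 0.395 TPM. The gene, on chromosome 2 from 180597790 to 180622189 (GRCm38, plus strand), shares 234 exon bases, 6.07% of its exons, with Tcfl5 on the opposite strand, which was at 0 to 0.0961 TPM.

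**Figure D4:**
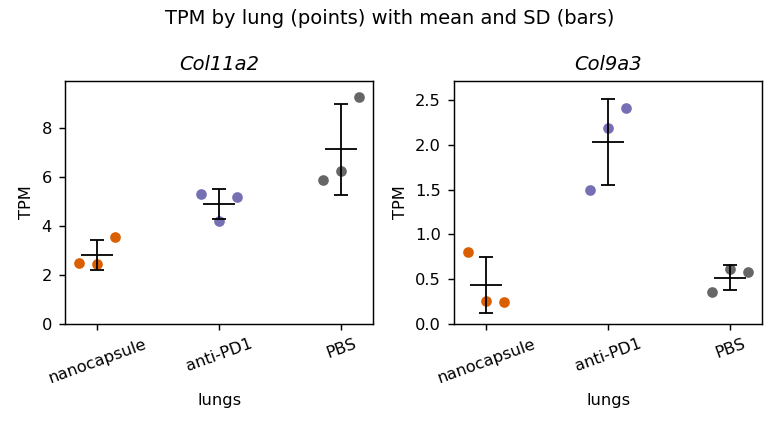
TPM (y axes) of Col11a2 and Col9a3 in nanocapsule, anti-PD1 and PBS lungs (x axis); points are lungs and bars the mean and SD of 3 lungs. Col11a2 is lowest in nanocapsule lungs (2.82 ± 0.621) and highest in PBS lungs (7.15 ± 1.88), and Col9a3 exceeds 1 TPM in anti-PD1 lungs only.

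The other 25 collagen genes did not reach 1 TPM in 3 lungs. Of these, 22 stayed below 1 TPM in every lung, 11 averaged less than 0.1 TPM, and Col9a1 was at 0 throughout. The gene nearest below the rule was Col7a1, the anchoring fibril chain of skin, at 1.36, 0.606 and 0.542 TPM in nanocapsule lungs, 0.571, 0.907 and 0.581 TPM in anti-PD1 lungs and 0.467, 0.791 and 1.44 TPM in PBS lungs. Col27a1, a fibrillar chain, and Col6a5 each reached 1 TPM in 1 lung. Just inside the rule were Col4a5 and Col9a3, each with 3 lungs at 1 TPM or more.

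Among the low genes, Col12a1, a FACIT chain of fibrils under load, stood at 0.0667, 0.101 and 0.0124 TPM in nanocapsule lungs, 0.475, 0.495 and 0.258 TPM in anti-PD1 lungs and 0.365, 0.174 and 0.322 TPM in PBS lungs. Col17a1, the transmembrane collagen of hemidesmosomes, averaged 0.0125 ± 0.000539 TPM in nanocapsule lungs, 0.0916 ± 0.0387 TPM in anti-PD1 lungs and 0.103 ± 0.0286 TPM in PBS lungs (SD, n = 3 each). In both genes all nanocapsule lungs lay below all others, at levels too low to be tested, and both were picked after their values had been seen. Among tested genes, all nanocapsule lungs lay below all anti-PD1 lungs for 24.6% and below all PBS lungs for 11.9%. The nanocapsule values of Col17a1 are so near 0 that their small SD is no measure of precision. Col5a3, a minor type V chain, averaged 0.626 TPM in nanocapsule lungs, 0.678 TPM in anti-PD1 lungs and 0.796 TPM in PBS lungs. The remaining 13 were the fibrillar Col24a1, the type IV chain Col4a6, the type VI chain Col6a6, the FACIT chains Col19a1 and Col22a1, the network-forming Col8a1, Col8a2 and Col10a1, the transmembrane Col13a1, Col23a1 and Col25a1, and Col26a1 and Col28a1. None of the 13 reached 1 TPM in any lung, and the highest values among them were 0.986 TPM for Col23a1 and 0.949 TPM for Col24a1.

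The fitted mean of nanocapsule lungs stood below that of anti-PD1 lungs for each of the 19 tested genes, although Col5a1 was above 0 with median-of-ratios scaling and, at 0.11, without anti-PD1 3. The median log2 difference was -0.46, against -0.17 for all tested genes. Limma called none of them, and 14 genes, 0.106% of those tested, were called in all. At an unadjusted p under 0.05, 5 collagens (Col9a3, Col11a2, Col4a1, Col4a2 and Col6a1) were lower and 0 higher, where 21.0% of all genes were lower and 6.69% higher. A log2 difference below 0 was found for 19 of 19 collagens and for 70.8% of all genes, and one above 0 for 0 of 19 and 29.2%. For 7 collagens, those 5 with Col14a1 and Col15a1, all nanocapsule lungs lay below all anti-PD1 lungs, against 24.6% of all genes, and for 0 all lay above, against 8.73%.

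Col9a3 is in both counts, and its separation was fixed by the 1 TPM rule. Without it 4 of 18 collagens were lower at an unadjusted p under 0.05, close to the share of all genes, and 6 of 18 were lower without overlap. Median-of-ratios scaling moved the median of all genes in this comparison to -0.03 and that of the collagens to -0.31. Of the 19 collagens 18 were then lower, and 4 had an unadjusted p under 0.05. The share of all genes lower with this scaling was not computed. By class the medians were -0.43 for 6 fibrillar, -0.98 for 3 basement membrane and -0.46 for 10 other genes. Col6a3 and the basement membrane gene Col4a5 passed the 1 TPM rule with no nanocapsule lung at 1 TPM or more. The rule thus favoured lower nanocapsule values for them. The number of genes called depended on single lungs, at 962 without PBS 2, 188 without PBS 3, 12 without PBS 1, 5 without nanocapsule 1, 1 without nanocapsule 3 or anti-PD1 3, and 0 without nanocapsule 2, anti-PD1 1 or anti-PD1 2, where 2179, 2491 and 4068 genes had an unadjusted p under 0.05. Without PBS 2 the calls held Col14a1 (limma adjusted p = 0.0456) and Col9a3, which the 1 TPM rule had selected for its anti-PD1 level (limma adjusted p = 0.0315). The 5 collagens at an unadjusted p under 0.05 were 2 without anti-PD1 3, 3 without nanocapsule 2 and 10 without anti-PD1 2.

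For nanocapsule against PBS, limma called none of the 19 collagens and 1 gene in all (0.00755%). At an unadjusted p under 0.05, Col11a2 was lower and 0 were higher, against 8.92% lower and 1.22% higher of all genes. A log2 difference below 0 was found for 17 of 19, and Col14a1 and Col4a1 stood above 0, against 71.2% below and 28.8% above for all genes. Among the 17 were Col6a3 and Col4a5, whose lower nanocapsule values the 1 TPM rule favoured here too. Col11a2 and Col18a1 had every nanocapsule lung below every PBS lung, against 11.9% of all genes, and 0 had every one above, against 2.40%. The collagen median was -0.16 and that of all genes -0.11. With median-of-ratios scaling, 14 of 19 were lower, as Col15a1, Col1a2 and Col5a2 changed sign. Without PBS 1, 11 of 19 were lower and the median was -0.04, and without PBS 2 it was -0.33.

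For anti-PD1 against PBS, again 0 of 19 collagens and 1 gene in all (0.00755%) were called by limma. At an unadjusted p under 0.05, 4 collagens (Col9a3, Col4a1, Col4a2 and Col14a1) were higher and Col11a2 was lower, against 8.48% higher and 8.06% lower of all genes. The same 4 genes had all anti-PD1 lungs above all PBS lungs, against 12.1% of all genes, and Col11a2 had all below, against 13.4%. Without Col9a3, 3 of 18 were higher by either measure. A log2 difference above 0 was found for 14 of 19 and below 0 for Col11a2, Col18a1, Col5a1, Col6a3 and Col6a4, against 56.9% above and 43.1% below for all genes. The collagen median was 0.22 and that of all genes 0.04. The collagen median was 0.11 without PBS 2, 0.42 without PBS 1, 0.33 without PBS 3 and 0.44 without anti-PD1 2. The 5 genes at an unadjusted p under 0.05 were 3 without PBS 2 or anti-PD1 1 and 1 without anti-PD1 3.

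**Figure D5:**
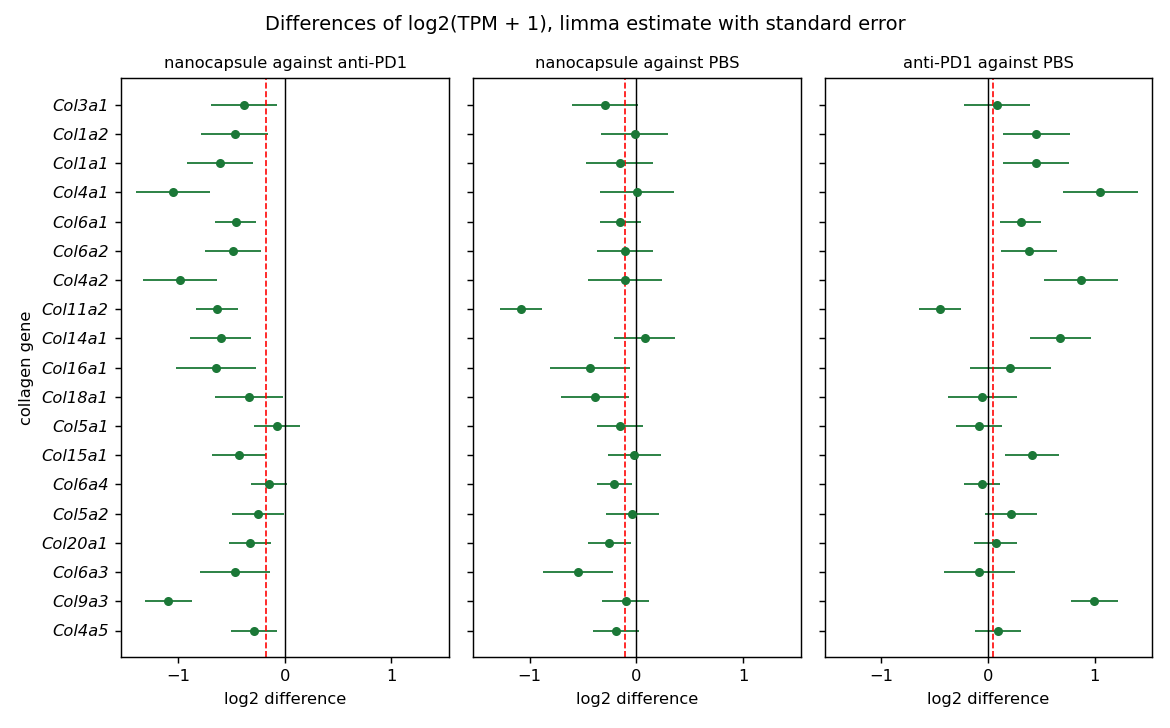
Log2 difference of log2(TPM + 1) (x axes) for the 19 tested collagen genes (y axis) in each comparison; points are limma estimates, bars their standard error, the black line 0 and the red dashed line the median of all tested genes. In nanocapsule against anti-PD1 all 19 points lie below 0 (Col5a1 is above 0 with median-of-ratios scaling or without anti-PD1 3), and Col4a1, Col4a2 and Col9a3 lie near 1 log2 unit from 0 in both comparisons with the anti-PD1 lungs.

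Any pair of the 3 comparisons shares a group, so the values above are not independent of each other. Over all 44 collagen genes, including those too low to test, means in nanocapsule lungs were lower than in anti-PD1 lungs for 36 and higher for 7, and lower than in PBS lungs for 33 and higher for 8. Means in anti-PD1 lungs were higher than in PBS lungs for 26 and lower for 17. Shares over all genes, tested or not, were not computed. Among tested genes, 70.8%, 71.2% and 56.9% went the same way in these 3 comparisons. Of the 25 collagens too low to test, nanocapsule means were below anti-PD1 means for 17 and above for 7. They were below PBS means for 14 and above for 8. For anti-PD1 against PBS, 12 were higher and 12 lower. Among libraries, anti-PD1 3 had the highest value of 10 of the 19 tested collagens, PBS 2 the lowest of 8 and nanocapsule 3 the lowest of 5.

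Fibroblast markers gave a different picture as a sum than marker by marker. Of 12 markers, all were found and 11 reached the 1 TPM rule, and their sum was 658 to 695 TPM in nanocapsule lungs, 595 to 833 TPM in anti-PD1 lungs and 617 to 711 TPM in PBS lungs. Pi16 and Gsn made up most of it. The fibrillar sum divided by this sum averaged 0.0977 ± 0.0214 in nanocapsule lungs, 0.131 ± 0.0300 in anti-PD1 lungs and 0.121 ± 0.0287 in PBS lungs (SD, n = 3 each), with overlapping groups. The nanocapsule mean was below the anti-PD1 mean for 10 of 12, and the anti-PD1 mean above the PBS mean for 11 of 12. The exception to the latter was Pi16, at 181, 205 and 177 TPM in anti-PD1 lungs and 228, 275 and 217 TPM in PBS lungs. The mean log2(TPM + 1) of the 12 differed by -0.52 for nanocapsule against anti-PD1, 0.48 for anti-PD1 against PBS and -0.05 for nanocapsule against PBS. Pdgfra, a growth factor receptor of lung fibroblasts, stood at 1.27, 1.41 and 1.06 TPM in nanocapsule lungs, 2.37, 2.71 and 2.53 TPM in anti-PD1 lungs and 1.48, 0.842 and 1.20 TPM in PBS lungs. The 7 markers of mesothelium, the cell layer that covers the lung, summed to 80.9 to 87.7 TPM in nanocapsule lungs, 110 to 160 TPM in anti-PD1 lungs and 61.5 to 156 TPM in PBS lungs.

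In Upk3b, a mesothelial marker, anti-PD1 1 (35.5 TPM) and PBS 1 (30.1 TPM) stood apart from the other lungs, and the same lungs were the 2 highest in Col3a1. All 12 neutrophil markers were found, and they summed to 174410 to 197771 TPM in nanocapsule lungs, 114349 to 131025 TPM in anti-PD1 lungs and 136453 to 189208 TPM in PBS lungs. Smooth muscle and pericyte markers, 12 genes of which 8 reached the 1 TPM rule, summed to 20.7 to 22.4 TPM in nanocapsule lungs, 29.6 to 37.4 TPM in anti-PD1 lungs and 21.6 to 26.03 TPM in PBS lungs. The part of these cell types in the collagen differences was not tested.

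Genes that act on collagen were read from 7 lists, and limma called no member in any comparison. Beside these lists stand the shares of all genes, of which 70.8% were lower in nanocapsule against anti-PD1, 71.2% lower in nanocapsule against PBS and 56.9% higher in anti-PD1 against PBS, with medians of -0.17, -0.11 and 0.04. Of 17 tested genes of chain modification and folding, 2 were higher and 15 lower in nanocapsule against anti-PD1, with a median log2 difference of -0.32. Serpinh1, the collagen chaperone HSP47, averaged 12.2 ± 3.35 TPM in nanocapsule lungs, 16.9 ± 6.11 TPM in anti-PD1 lungs and 15.2 ± 5.49 TPM in PBS lungs (SD, n = 3 each). P4ha1, a subunit of the enzyme that hydroxylates proline in the helix, averaged 23.4 ± 3.24 TPM in nanocapsule lungs, 25.3 ± 0.346 TPM in anti-PD1 lungs and 30.2 ± 0.429 TPM in PBS lungs (SD, n = 3 each). Its difference of nanocapsule against PBS was -0.36 (SE 0.11, limma adjusted p = 0.365). Colgalt1, a galactosyltransferase of hydroxylysine, averaged 56.2 ± 15.1 TPM in nanocapsule lungs, 79.3 ± 4.50 TPM in anti-PD1 lungs and 61.1 ± 14.1 TPM in PBS lungs (SD, n = 3 each). P3h3, a prolyl 3-hydroxylase family member, averaged 1.73 ± 0.363, 3.33 ± 0.536 and 2.40 ± 0.776 TPM in the nanocapsule, anti-PD1 and PBS lungs (SD, n = 3 each).

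Of 8 tested genes of propeptide processing and crosslinking, 8 were lower in nanocapsule against anti-PD1 and in nanocapsule against PBS, and 8 were higher in anti-PD1 against PBS. Their median log2 differences were -0.50, -0.21 and 0.28. Pcolce2, an enhancer of C-propeptide cleavage, averaged 1.09 ± 0.371 TPM in nanocapsule lungs, 3.13 ± 1.65 TPM in anti-PD1 lungs and 1.34 ± 0.262 TPM in PBS lungs (SD, n = 3 each), with a difference of -0.92 for nanocapsule against anti-PD1 (SE 0.27, limma adjusted p = 0.0912). Adamts14, an N-propeptidase, averaged 1.94 ± 0.381 TPM in nanocapsule lungs, 3.02 ± 0.406 TPM in anti-PD1 lungs and 2.85 ± 0.620 TPM in PBS lungs (SD, n = 3 each). Tgm2, a crosslinking transglutaminase, averaged 40.0 ± 4.48 TPM in nanocapsule lungs, 54.3 ± 2.63 TPM in anti-PD1 lungs and 47.9 ± 11.2 TPM in PBS lungs (SD, n = 3 each). Lox, the lysyl oxidase that crosslinks fibrils, was below the rule, at 0.224 to 0.788 TPM.

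Degradation genes were split, with 4 higher and 7 lower of 11 tested in nanocapsule against anti-PD1. The higher ones included Mmp8, the collagenase of neutrophil granules, and Mmp9, a gelatinase that neutrophils also carry. Mmp8 averaged 478 ± 69.2 TPM in nanocapsule lungs, 276 ± 35.7 TPM in anti-PD1 lungs and 443 ± 97.7 TPM in PBS lungs (SD, n = 3 each), a difference of 0.79 for nanocapsule against anti-PD1 (SE 0.17, limma adjusted p = 0.0582). Mmp9 averaged 1021 ± 146 TPM in nanocapsule lungs, 566 ± 21.6 TPM in anti-PD1 lungs and 983 ± 272 TPM in PBS lungs (SD, n = 3 each), and differed by 0.84 in the same comparison (SE 0.18, limma adjusted p = 0.0628). Both genes are themselves in the neutrophil list given above, and all 12 members of that list had higher means in nanocapsule than in anti-PD1 lungs. Mmp12, the macrophage metalloelastase, went the other way, at 17.2 ± 3.02 TPM in nanocapsule lungs, 29.9 ± 10.03 TPM in anti-PD1 lungs and 20.4 ± 0.439 TPM in PBS lungs (SD, n = 3 each; limma adjusted p = 0.0912 for nanocapsule against anti-PD1).

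Of 8 tested collagen receptors, 2 were higher and 6 lower in nanocapsule against anti-PD1, and 6 higher and 2 lower in anti-PD1 against PBS, the first close to the 70.8% lower of all genes. Ddr2, a receptor tyrosine kinase that fibrillar collagen activates, averaged 0.947 ± 0.103 TPM in nanocapsule lungs, 2.47 ± 0.740 TPM in anti-PD1 lungs and 1.29 ± 0.659 TPM in PBS lungs (SD, n = 3 each), a difference of -0.81 for nanocapsule against anti-PD1 (limma adjusted p = 0.0956). Itgb1, the common subunit of the collagen-binding integrins, averaged 82.1 ± 14.9 TPM in nanocapsule lungs, 100.7 ± 2.78 TPM in anti-PD1 lungs and 91.6 ± 6.77 TPM in PBS lungs (SD, n = 3 each). Adgrg1, an adhesion receptor that binds type III collagen, averaged 2.89 ± 0.444 TPM in nanocapsule lungs, 5.26 ± 1.63 TPM in anti-PD1 lungs and 3.09 ± 1.004 TPM in PBS lungs (SD, n = 3 each).

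The basement membrane partners of type IV collagen had the same signs as Col4a1 and Col4a2 in the comparisons with the anti-PD1 lungs. Of 10 tested, 10 were lower in nanocapsule against anti-PD1 (median -0.49) and 10 higher in anti-PD1 against PBS (median 0.25), and 2 were higher and 8 lower in nanocapsule against PBS (median -0.23). Pxdn, peroxidasin, which forms the sulfilimine crosslinks of type IV collagen, averaged 0.833 ± 0.196 TPM in nanocapsule lungs, 2.10 ± 0.588 TPM in anti-PD1 lungs and 0.738 ± 0.283 TPM in PBS lungs (SD, n = 3 each). Its difference of nanocapsule against anti-PD1 was -0.74 (SE 0.21, limma adjusted p = 0.0882). Nid1, which links the laminin and type IV networks, averaged 2.20 ± 0.207 TPM in nanocapsule lungs, 4.05 ± 1.15 TPM in anti-PD1 lungs and 3.55 ± 0.291 TPM in PBS lungs (SD, n = 3 each). Lamc1, the common laminin gamma chain, averaged 3.62 ± 0.626 TPM in nanocapsule lungs, 5.83 ± 0.898 TPM in anti-PD1 lungs and 4.40 ± 0.723 TPM in PBS lungs (SD, n = 3 each). The endothelial, alveolar and smooth muscle and pericyte marker sums given above also averaged highest in anti-PD1 lungs. In nanocapsule against PBS, however, 8 of 9 alveolar type 2 markers had higher means. The part of these cell types was not tested.

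Of 17 tested genes of the interstitial matrix, 1 was higher and 16 lower in nanocapsule against anti-PD1 (median -0.67), and 16 higher and 1 lower in anti-PD1 against PBS (median 0.45). Postn, periostin, a matricellular protein that binds type I collagen, averaged 2.77 ± 1.003 TPM in nanocapsule lungs, 9.21 ± 4.15 TPM in anti-PD1 lungs and 3.55 ± 2.26 TPM in PBS lungs (SD, n = 3 each), a difference of -1.40 for nanocapsule against anti-PD1 (SE 0.39, limma adjusted p = 0.0873). Bgn, the small proteoglycan biglycan, averaged 15.4 ± 4.94 TPM in nanocapsule lungs, 26.7 ± 10.2 TPM in anti-PD1 lungs and 11.5 ± 4.11 TPM in PBS lungs (SD, n = 3 each), a difference of 1.15 for anti-PD1 against PBS (SE 0.33, limma adjusted p = 0.211). Prelp, a proteoglycan that ties fibrils to basement membrane, averaged 3.21 ± 0.212 TPM in nanocapsule lungs, 7.69 ± 2.59 TPM in anti-PD1 lungs and 4.95 ± 2.18 TPM in PBS lungs (SD, n = 3 each). Sparc, a collagen-binding glycoprotein, averaged 28.8 ± 6.83 TPM in nanocapsule lungs, 46.7 ± 12.7 TPM in anti-PD1 lungs and 32.1 ± 13.1 TPM in PBS lungs (SD, n = 3 each).

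The TGF-beta pathway, a main inducer of collagen transcription in fibroblasts, had 17 tested genes, 5 higher and 12 lower in nanocapsule against anti-PD1 (median -0.26) and 10 higher and 7 lower in anti-PD1 against PBS (median 0.10). These counts were close to the shares of all genes, 70.8% lower and 56.9% higher. Ltbp4, which holds latent TGF-beta in the matrix, averaged 9.42 ± 1.83 TPM in nanocapsule lungs, 22.4 ± 10.4 TPM in anti-PD1 lungs and 12.4 ± 4.54 TPM in PBS lungs (SD, n = 3 each), a difference of -1.09 for nanocapsule against anti-PD1 (SE 0.32, limma adjusted p = 0.0910). Smad7, an inhibitor of the pathway that TGF-beta itself induces, averaged 14.6 ± 1.40 TPM in nanocapsule lungs, 16.9 ± 1.85 TPM in anti-PD1 lungs and 19.1 ± 2.37 TPM in PBS lungs (SD, n = 3 each). Tgfbi, a TGF-beta induced matrix protein, averaged 586 ± 67.2 TPM in nanocapsule lungs, 451 ± 52.4 TPM in anti-PD1 lungs and 545 ± 95.3 TPM in PBS lungs (SD, n = 3 each).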

How the data were processed

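The values used were the TPM per gene that the authors deposited, with 1 column for each of the 9 lungs. Salmon stands in the name of the table. DESeq2 and the build GRCm38 are named, without roles, in the processing notes of the submitters, and versions, filters and the use of strand are not given in the sources used here. Because TPM are not read counts, no count test was run.

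A gene was kept where 3 or more lungs held 1 TPM or more. Values of log2(TPM + 1) went into limma (3.58.1, under R 4.3.3), with a variance trend and 1 spread for the 3 groups on 6 residual degrees of freedom. All tests are two-sided, adjusted by Benjamini-Hochberg over all 13248 genes, with calls at an adjusted p under 0.05. The fit was tested on simulated data.

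Collagen members and gene lists were chosen with earlier results of these data known. Values in every lung are given for Col1a1, Col1a2, Col3a1, Col4a1, Col4a2 and the 3 members with the smallest p in each comparison, all 19 passing members with group means, and the 3 smallest p of each list with Serpinh1, P4ha1, Lox, Mmp8, Mmp9 and Sparc. The values by lung of Col6a1, Col14a1, Col7a1, Col12a1 and of single cell type markers, the group means of Col17a1, and the ratios of type IV to endothelial and of fibrillar to fibroblast transcripts, were chosen after their values had been seen. Positions are those of GENCODE M21 on GRCm38 and sequences those of RefSeq on GRCm38.p6. Alternatives covered pseudocounts, filters, scalings, variance models, a block for the lung number, class membership and the omission of each lung.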

Additional observations from a re-analysis of the deposited data

How the results depend on the processing

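Each result was recomputed under up to 18 alternatives. Limma called 0 collagens in nanocapsule against PBS and in anti-PD1 against PBS in all of them, and the median collagen differences kept their signs in all 3 comparisons under these alternatives, from -0.66 to -0.20 in nanocapsule against anti-PD1, -0.33 to -0.04 in nanocapsule against PBS and 0.03 to 0.44 in anti-PD1 against PBS. In nanocapsule against anti-PD1 the 0 calls became 1 (Col9a3, limma adjusted p = 0.0467) in a fit of the 2 groups alone, which called 476 genes, and 0 to 2 when each lung was left out. All genes called in this comparison numbered 14, with 197 at a mean of at least 5 TPM, 79 without S100a8, S100a9, mitochondrial and haemoglobin genes, 2 without a variance trend and 0 to 962 with a lung left out. With the lung number as a replicate block the collagen calls were 4 (Col9a3, Col11a2, Col4a1 and Col4a2; limma adjusted p = 0.0411, 0.0437, 0.0447 and 0.0437) among 1095 genes. Col9a3 had entered the test through its anti-PD1 lungs alone. The numbers did not pair the lungs: residuals of lungs with the same number correlated at -0.18 to 0.28, and those with different numbers at -0.26 to 0.22. Class means moved by more than 1 SD without S100a8, S100a9, mitochondrial and haemoglobin genes (fibrillar 82.9 TPM in nanocapsule lungs, other 34.4 TPM in nanocapsule and 52.9 TPM in anti-PD1 lungs), with types XV and XVIII counted as basement membrane (nanocapsule lungs 13.6 TPM for that class and 23.5 TPM for the other), and without the most abundant member (fibrillar 37.9, 55.8 and 46.1 TPM and basement membrane 4.70, 10.1 and 5.77 TPM in nanocapsule, anti-PD1 and PBS lungs, and other 22.04 TPM in nanocapsule lungs). The last 2 changes alter which genes a sum holds, and the first rescales the same genes. Signs changed for some differences near 0. Col1a2 in nanocapsule against PBS was 0.0939 with median-of-ratios scaling and 0.0156 without the abundant genes. With single lungs left out, log2 differences of nanocapsule against PBS ranged from -0.45 to 0.13 for Col1a1, -0.36 to 0.21 for Col1a2, -0.35 to 0.32 for Col4a1 and -0.46 to 0.14 for Col4a2, and those of anti-PD1 against PBS from -0.0407 to 0.20 for Col20a1, -0.11 to 0.34 for Col3a1 and -0.41 to 0.27 for Col6a3. The cause was not tested. Col11a2 kept its sign in all comparisons, with limma adjusted p of 0.0840 to 0.742 for nanocapsule against PBS. Leaving out Col9a3, a choice made after the data were seen, gave medians of -0.46, -0.16 and 0.21 in nanocapsule against anti-PD1, nanocapsule against PBS and anti-PD1 against PBS. Depth was unknown, so the precision of low TPM could not be given.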
